A study of Danio rerio with 72 samples.

Results

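The captures described here are the 18 vascular captures of series Z, 1 of the 2 series of zebrafish tail sections in a study of 72 laser-captured libraries. They were chosen by their labels, where CA marks the caudal artery, CV the caudal vein and CVP the plexus of small veins that adjoins them. Each of 6 sections gave 1 capture of each region. The sections carry the layer numbers 1, 6, 10, 19, 22 and 25, and layers 19, 22 and 25 (9 captures) were compared with layers 1, 6 and 10 (9 captures). All captures came from frozen, cresyl violet-stained cross-sections of the tail of embryos at 52 hours post fertilization (hpf), and poly(A) RNA was amplified by a single-cell PCR protocol before library preparation. Neural tissue and the muscle of both sides were captured from the same sections. The labels name no genotype, strain or treatment, and they state neither which way the layers are counted, nor which embryo a section came from, nor what Z stands for. Each p-value below thus speaks only of how much sections vary, a spread that may be technical or lie within 1 embryo.

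In the zebrafish embryo the caudal artery and caudal vein carry circulating blood through the tail, and the venous plexus between them is the main part of the caudal hematopoietic tissue, where blood stem and progenitor cells settle and divide for some days. Red blood cells at this age come mostly from an earlier, primitive wave and carry embryonic globins, whose heme is built by a chain of enzymes that begins with Alas2 and ends with ferrochelatase. A capture of a vessel thus takes its wall, the cells around it and any blood inside it. In such bulk captures fewer cells of a type and less RNA per cell cannot be told apart.

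The vascular labels were checked against vessel genes. The endothelial cadherin gene cdh5 and the endothelial VEGF receptor gene kdrl were above 0 in 18 of 18 captures, with median levels of 45.9 and 72.1 FPKM (reads scaled to gene length and to the library's total) against 1.35 and 0.612 FPKM in the 17 neural and muscle captures used. The chemokine gene cxcl12b lay between 7.19 and 9.12 on the log2(FPKM + 1) scale in the 6 CA captures and between 0 and 3.0 in the 6 CV captures. The venous scavenger receptor gene mrc1a was not limited to veins, and lay between 3.34 and 8.83 in CA against 7.39 to 8.48 in CV. In correlation over genes, 3 captures sat closer to the mean of another region than to their own: CV of layer 25 (closer to CVP) and CVP of layers 22 and 25 (closer to CV).

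Depth differed between the sides. Whole reads recovered from the FPKM steps came to 177428 to 1084664 per capture in the low layers (median 352463) and to 629848 to 4009980 in the high layers (median 1563561). Genes above 0 numbered 3665 to 11986 in the low and 9580 to 15416 in the high layers. The middle of all genes also differed: of the 11665 genes tested, the median difference between high and low layers was 0.59 (log2), and 76.1% of genes were higher in the high layers. With every vascular capture thinned to 177428 reads, that median was 0.51 and 71.6% of genes were higher. Every difference below is to be read against these values.

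**Figure D1:**
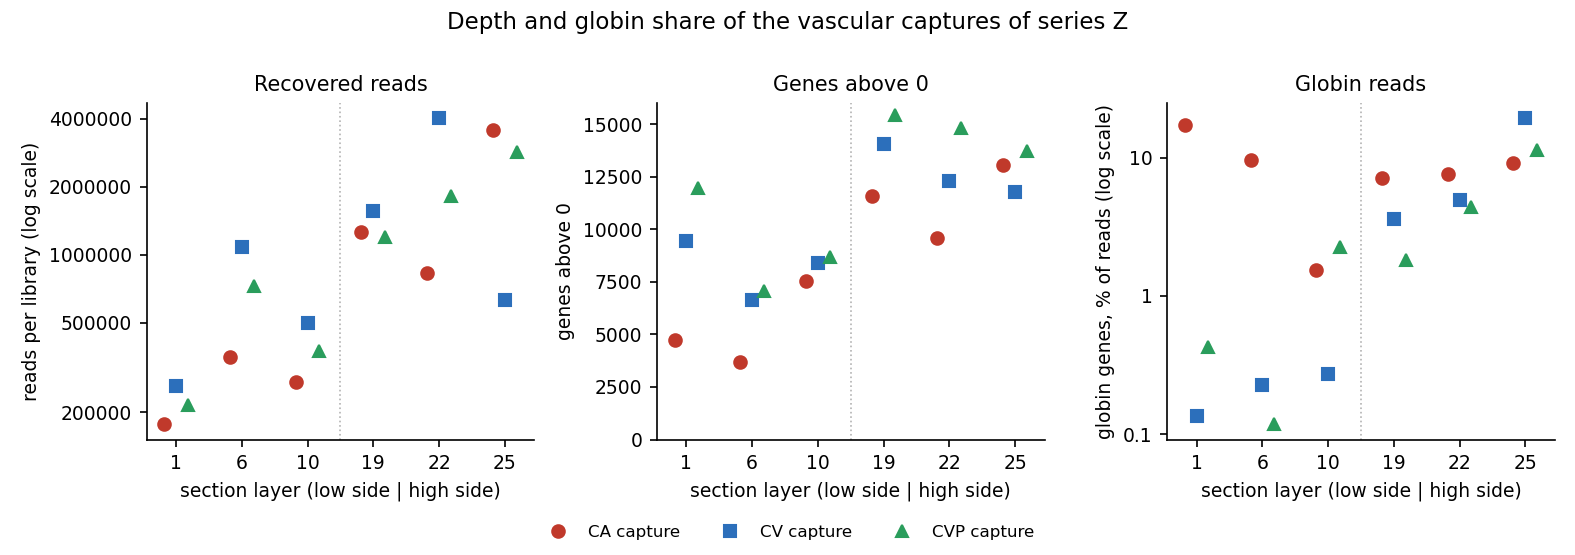
Recovered reads per library (log axis), number of genes above 0, and globin genes as a percent of reads (log axis) for each of the 18 captures by section layer; each point is 1 library, coloured by region, and the dotted line parts the low from the high side. Reads and detected genes are mostly higher on the right side, while the globin share is lowest in the low-layer CV captures and the CVP captures of layers 1 and 6, all under 0.5%, and the CA and CVP captures of layer 10 and the CVP capture of layer 19 lie between 1.55% and 2.25%.

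Averaged over the 3 vascular captures of a section, 53 of 11665 genes differed between high and low layers, 52 of them higher and 1 lower in the high layers (limma with a trended prior on log2(FPKM + 1), n = 3 sections a side, two-sided, Benjamini-Hochberg adjusted p under 0.05). That is 0.446% of genes called higher and 0.00857% called lower. Members of a list of 35 globin, heme and other red cell genes made up 11 of the 52, and reached the highest levels among them. Called red cell genes off that list, such as rhd, are not in this count. Without adjustment, 1872 genes had p under 0.05, 1806 higher and 66 lower. The filter on low values took a gene with an FPKM of 1 or more in 6 or more of the 18 captures. Of the 52 genes called higher, 21 met it on the 9 low-layer captures alone, and 31 (59.6%, against 36.7% of all genes tested) needed the high-layer captures, so that their selection favoured a difference. Of these, 14 reached 1 FPKM in at most 1 low-layer capture, and such genes, where named below, are given by their reads or levels, without a p-value. The section means of the 2 sides did not overlap for 2205 genes that were higher (18.9%) and for 192 that were lower (1.65%).

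hbae3, an embryonic alpha globin gene and the gene with the highest mean level in these captures, had section means of 13.34, 12.75 and 13.37 in layers 1, 6 and 10 and of 15.28, 15.92 and 17.16 in layers 19, 22 and 25. Each high section lay above each low section, and the level was highest in layer 25. The difference was 2.97 (SE 0.29, log2, adjusted p = 2.5e-05). The embryonic beta globin gene hbbe3 differed by 3.17 (SE 0.34, adjusted p = 6.3e-05) and hbbe2 by 3.99 (SE 0.57, adjusted p = 0.0030). A second alpha globin gene, hbae1.3, differed by 2.41 (SE 0.29, adjusted p = 0.00034). hbbe1.1 and hbbe1.2 differed by 3.81 and 2.62, with adjusted p-values of 0.0497 and 0.036. These globin genes are near-identical copies in part, so the split of reads among them is uncertain.

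alas2, the gene of the first and rate-limiting enzyme of heme synthesis in red cells, had section means of 8.25, 6.48 and 8.01 in the low layers and 9.45, 10.00 and 10.72 in the high layers. The sides did not overlap, and the difference was 2.48 (SE 0.46, adjusted p = 0.022). Without layer 6, 22 or 25 it was 1.93, 2.5 and 2.15, and the call was lost (adjusted p = 0.066, 0.11 and 0.17). ppox, which encodes the next to last enzyme of the pathway, had 1 read in the 9 low-layer captures together and 693 reads in the 9 high-layer captures, and it entered the test through the high layers alone. Further heme enzyme genes did not pass the test: urod, hmbsb and the ferrochelatase gene fech differed by 3.73, 3.54 and 3.16 with adjusted p-values of 0.060, 0.053 and 0.072. These 3 reached 1 FPKM in only 2, 4 and 2 low-layer captures. They met the filter only with the high-layer captures, so that their selection favoured a difference.

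Among genes of the red cell body and its upkeep, the carbonic anhydrase gene cahz rose by 2.29 (SE 0.34, adjusted p = 0.0035) and the antioxidant gene prdx2 by 1.69 (SE 0.35, adjusted p = 0.036). nt5c2l1, a nucleotidase gene, rose by 2.49 and znfl2a, a zinc finger gene, by 3.58, with adjusted p-values of 0.030 and 0.036. slc4a1a, which encodes the anion exchanger band 3 of the red cell membrane, differed by 1.32 and missed the threshold (adjusted p = 0.076), as did the transferrin receptor gene tfr1a (3.56, adjusted p = 0.053) and the erythroid regulator genes gata1a (1.78, adjusted p = 0.24) and klf1 (2.39, adjusted p = 0.15). Of the genes in this paragraph, znfl2a and tfr1a reached 1 FPKM in only 3 and 5 low-layer captures. Both met the filter only with the high-layer captures, so that their selection favoured a difference. The gene rhag of the Rh membrane complex was the 1 member of the list that lay lower in the high layers (-0.30, adjusted p = 0.77). rhd, its partner in that complex, was not on the list and rose by 3.94 (SE 0.82, adjusted p = 0.036).

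Of the 35 genes on the erythroid list, 30 passed the filter on low values, 9 of them only with the high-layer captures. Of the 30, 11 were called higher and 0 lower, against 0.446% and 0.00857% of all genes. Of the 11, 9 also met the filter on the low-layer captures alone, while ppox and znfl2a did not. Of the 30, 29 lay above 0 (96.7%, against 76.1% of all genes). Their median difference was 2.48, beside 0.59 for all genes tested, and for 25 of the 30 the high sections lay above the low ones without overlap, as they did for 18.9% of all genes. Without layer 6, 22 or 25 the list had 5, 3 and 3 calls. The list was written with earlier results of these data known, so its counts are a description.

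**Figure D2:**
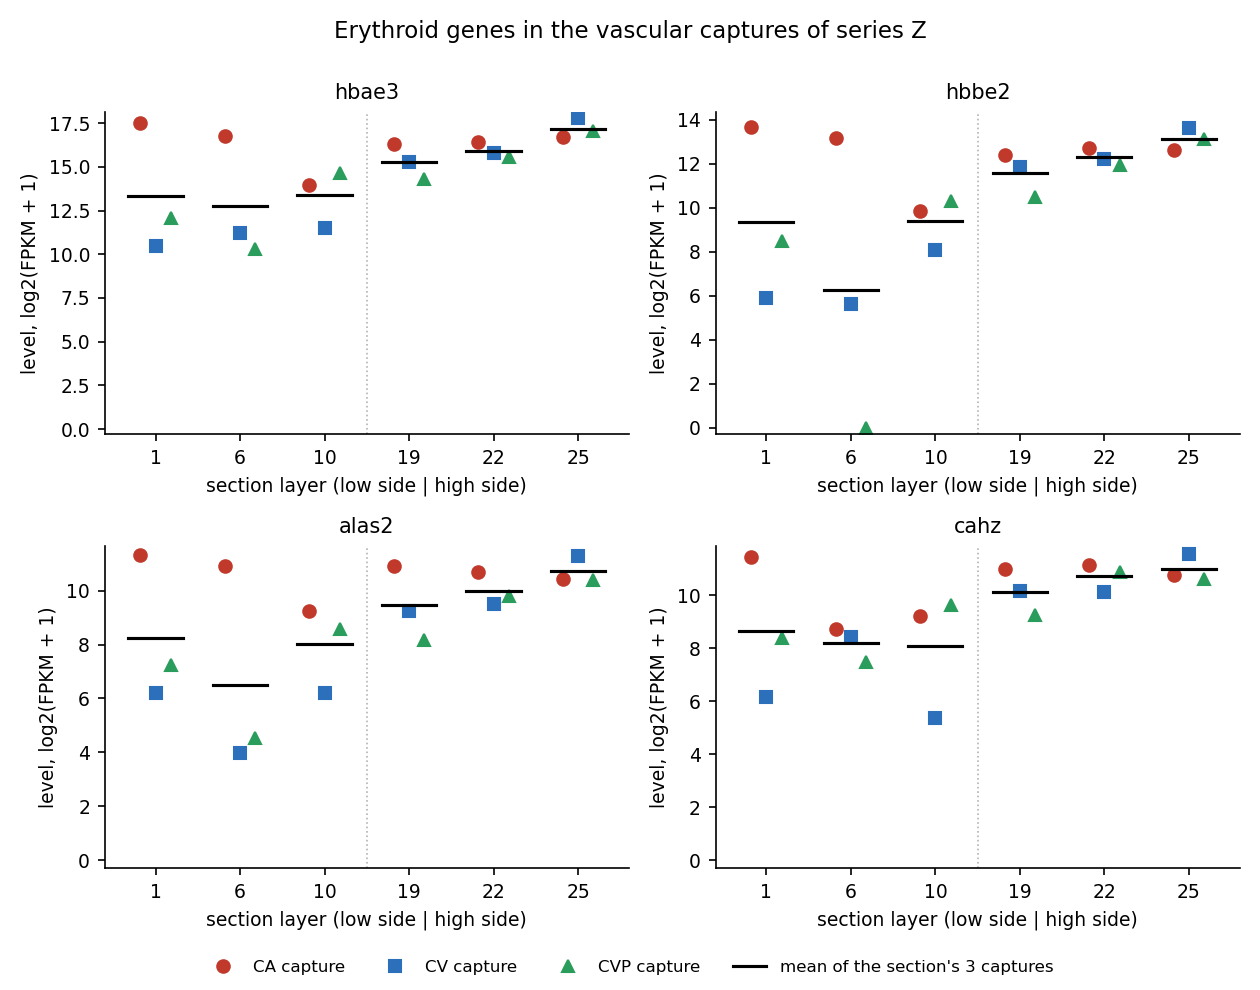
Level of hbae3, hbbe2, alas2 and cahz, log2(FPKM + 1), in each vascular capture by section layer; points are single libraries coloured by region, black bars the mean of a section's 3 captures, and the dotted line parts the low from the high layers. The spread between regions is wide in the low layers, where CA is high in layers 1 and 6, and narrow in the high layers.

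Region by region, the difference had a different size. For hbae3, the CA captures read 17.50, 16.73 and 13.94 in layers 1, 6 and 10 and 16.30, 16.40 and 16.68 in layers 19, 22 and 25. The artery was thus as rich in hbae3 at layers 1 and 6 as at any high layer, and only its layer 10 lay lower. The CV captures read 10.45, 11.21 and 11.49 in the low layers and 15.25, 15.81 and 17.77 in the high layers, with no overlap. The CVP captures read 12.06, 10.29 and 14.66 against 14.28, 15.54 and 17.04, so that layer 10 lay inside the range of the high layers.

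alas2 followed the same order. The CA captures read 11.31, 10.94 and 9.23 in the low layers and 10.93, 10.69 and 10.44 in the high layers. The CV captures read 6.19, 3.97 and 6.20 against 9.25, 9.50 and 11.30, and the CVP captures 7.26, 4.55 and 8.59 against 8.18, 9.82 and 10.41. The sides overlapped in CA and CVP and were apart in CV.

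As a share of all reads, globin genes took 17.2%, 9.58% and 1.55% of CA reads in layers 1, 6 and 10 and 7.10% to 9.19% in the high layers. In CV the share was 0.134% to 0.271% in the low layers and 3.60% to 19.2% in the high layers. In CVP it was 0.118% to 2.25% in the low and 1.81% to 11.4% in the high layers. The sides were apart in CV and overlapped in CA and CVP.

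Tested 1 region at a time, no erythroid gene passed the threshold in any region. CA had 1 gene called (0.00857%, aqp8a.1) of 11665, CV 0 (0%) and CVP 0 (0%), with 1250, 1131 and 1161 genes at an unadjusted p under 0.05. hbae3 differed by 0.40 in CA (SE 0.91, adjusted p = 0.89), by 5.23 in CV (SE 0.60, adjusted p = 0.13) and by 3.28 in CVP (SE 0.92, adjusted p = 0.44). The erythroid list had a median difference of 0.83 in CA, beside 0.85 for all genes, of 3.91 in CV, beside 0.48, and of 2.55 in CVP, beside 0.48. Of its 30 tested members, 27 lay above 0 in CA, 30 in CV and 28 in CVP (90%, 100% and 93.3%). Those of all genes were 71.8%, 63.7% and 64.8%.

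The test of the difference between regions called 0 of 11665 genes (0%; limma F test over the 3 regions with the section as a term), and 775 genes had an unadjusted p under 0.05. For hbae3 the difference between CV and CA was 4.83 (adjusted p = 0.26), and the test over all 3 regions gave an adjusted p of 0.36. The region pattern of the globin genes is therefore a description. The smallest adjusted p over regions was 0.30, shared by glrx5 and mpc1. glrx5, a glutaredoxin gene needed for iron-sulfur clusters and heme in zebrafish, read 8.64, 9.38 and 8.66 in CA in the low layers and 0, 0 and 5.89 in CV, and lay at 7.73 to 9.12 in CV and 8.55 to 8.87 in CA in the high layers. mpc1, a gene of the mitochondrial pyruvate carrier, went the other way, with 0, 3.95 and 0 in CA and 9.24, 8.58 and 8.89 in CV in the low layers and 5.85 to 7.38 in both regions in the high layers.

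**Figure D3:**
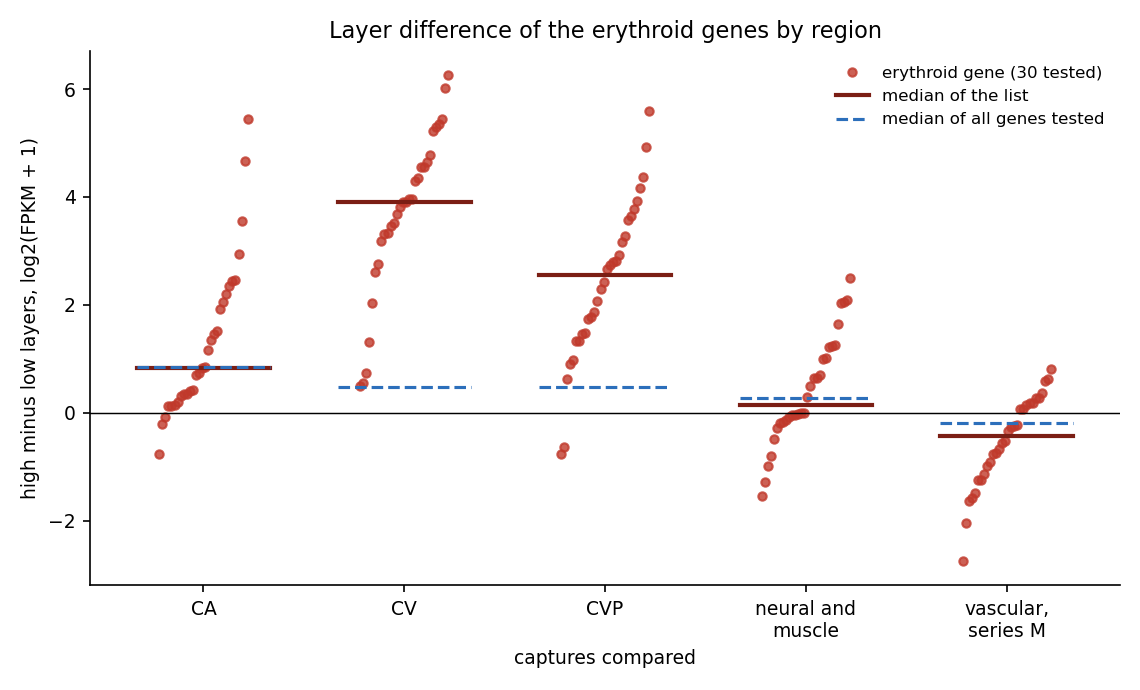
Difference between high and low layers, log2(FPKM + 1), for each of the 30 tested erythroid genes in CA, CV, CVP, the neural and muscle mean of the same sections and the vascular mean of series M; points are genes in order of size, solid bars the median of the list and dashed bars the median of all 11665 genes tested. The list sits above all genes in CV and CVP and at the same median in CA.

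The lysozyme gene lyz, a marker of neutrophils and macrophages, was among the genes with the smallest p over regions (adjusted p = 0.32). In CA it read 10.17, 12.13 and 13.29 in the low layers and 1.21, 0 and 9.68 in the high layers. In CVP it read 12.18, 8.44 and 12.23 against 12.75 to 13.14. The high layers were thus below the low layers in CA and above them in CVP, without a call in either region (adjusted p = 0.36 and 0.45). The lymphoid and progenitor regulator gene ikzf1 read 6.12 to 6.76 in CA in the low layers and 1.23 to 5.56 in the high layers, while in CV it was listed at 0 in the 3 low layers and read 3.67 to 5.80 in the high layers (adjusted p over regions = 0.32).

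Several called genes are known from iron, heme and blood biology outside the list. fth1a, the ferritin heavy chain gene, rose by 1.46 (SE 0.29, adjusted p = 0.030), from section means of 10.31 to 10.82 in the low layers to 11.30 to 12.60 in the high layers. hmox1a, the gene of the heme-degrading enzyme heme oxygenase, was listed at 0 in 8 of 9 low-layer captures and above 0 in 8 of 9 high-layer captures, with 2 reads against 1005, and it entered the test through the high layers alone. gp9, which encodes a subunit of the von Willebrand factor receptor of thrombocytes, had 130 reads in the low-layer captures and 2915 in the high-layer captures, and rose by 3.94 (SE 0.71, adjusted p = 0.019). It was listed at 0 in every neural and muscle capture used and in all 18 vascular captures of series M. gp9 was the only 1 of 9 tested thrombocyte genes called, where 0.446% of all genes were called higher. The median of that list was 0.07, beside 0.59 for all genes.

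The gene with the largest difference past the threshold was aqp8a.1, which encodes an aquaporin, a water channel. All 3 low-layer CA captures were listed at 0, with no read among 802147, and the high-layer CA captures read 9.76, 9.31 and 10.10, with 5675 reads among 5653689. For counting error alone, with a floor of 3 reads over the low-layer CA captures, the share of reads was at least 268-fold higher in the high layers. The low-layer CA captures also held fewer genes above 0 (3665 to 7546, against 9580 to 13042), which that bound does not cover. aqp8a.1 was the 1 gene past the threshold in CA (difference 9.72, SE 0.57). But it reached 1 FPKM in 1 low-layer and 7 high-layer captures, so it entered the test through the high layers alone. The CA call was lost with a pseudocount of 0.1 and with any 1 section left out. In CV it read 0, 0 and 4.36 against 0.70, 4.92 and 6.79, and in CVP 0, 0 and 0 against 0, 5.26 and 6.69. The neural captures of layers 6, 22 and 25 held it too, at 4.75, 5.07 and 7.75.

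The next genes by size included UBL4B, a ubiquitin-like gene. It had no read among 3960562 in the 9 low-layer captures and 634 reads in the 9 high-layer captures. For counting error alone, that was at least 47.2-fold higher against a floor of 3 reads over the group. ppp1cbl, a protein phosphatase 1 subunit gene, had 5 reads against 569. Among the 15 largest were also mrpl53 of the mitochondrial ribosome, ndufb5 of respiratory complex I and echs1 of fatty acid oxidation. These rose by 4.52, 4.15 and 4.07 (adjusted p = 0.032, 0.036 and 0.032). They reached 1 FPKM in only 3, 4 and 3 low-layer captures. All thus met the filter only with the high-layer captures, and their selection favoured a difference. Of 85 tested oxidative phosphorylation genes, 3 were called higher (ndufb5, ndufc2 and ndufa4l) and 0 lower, against 0.446% and 0.00857% of all genes. Of the 85, 78 lay above 0 (91.8%, against 76.1% of all genes), with a median of 1.11 beside 0.59. Of the 3 called, ndufb5 and ndufc2 met the filter only with the high-layer captures. The list had 0 calls without layer 19, 22 or 25, 1 without layer 1 or 6 and 16 without layer 10. Of 74 tested ribosomal protein genes 0 were called, the median was 0.67, 72 lay above 0 (97.3%), and for 49 the high sections lay above the low ones without overlap, against 18.9% of all genes.

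Low-level genes in this set rest on few reads in the low layers. In a low-layer capture a single read was worth 0.92 to 2.69 for aqp8a.1 on the log2(FPKM + 1) scale and 1.06 to 2.94 for UBL4B, depending on the capture, and counting error alone is covered by the floors given.

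**Figure D4:**
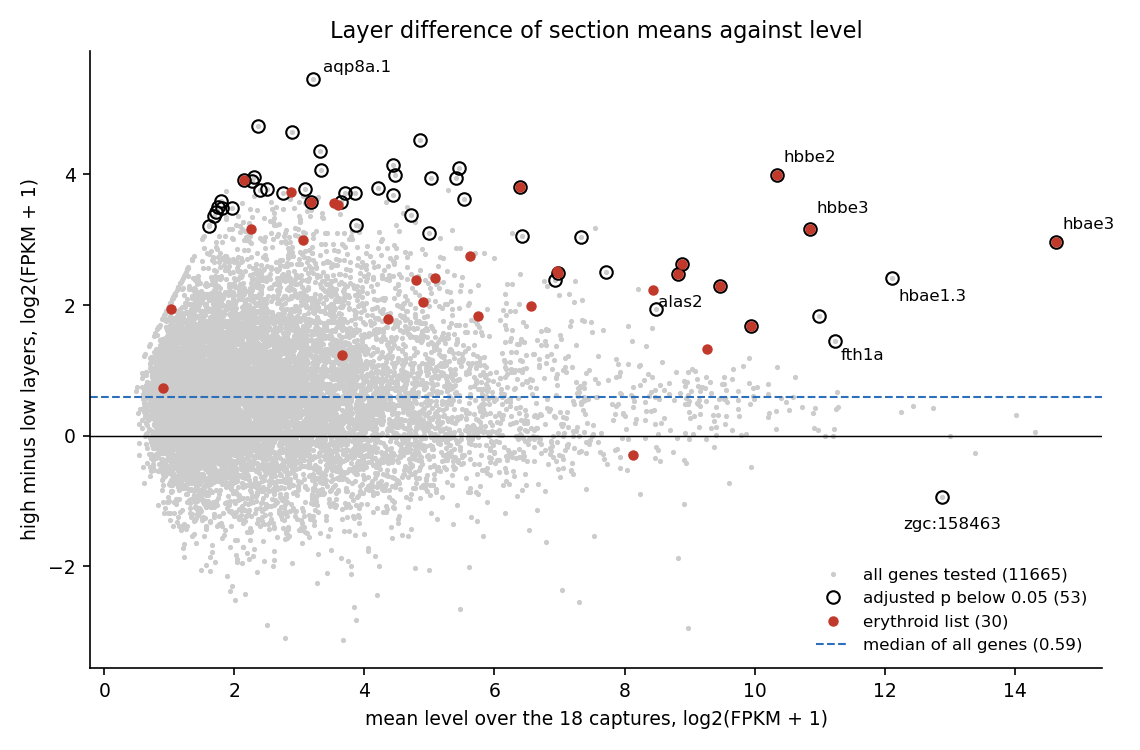
Difference between high and low layers of the section means against the mean level over the 18 captures, both on the log2(FPKM + 1) scale, for all 11665 genes tested (grey); red points are the 30 erythroid genes, open circles the 53 genes with an adjusted p under 0.05, and the dashed line is the median of all genes at 0.59. The highly expressed globin genes stand apart from other genes of the same level, and further called genes include weakly expressed ones at the upper edge of the cloud as well as highly expressed ones such as fth1a, prdx2, cahz and, below 0, zgc:158463.

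Posterior hox genes, which mark position along the body axis with the group 13 genes at the tail end, were not called (0 of 20 tested). Of the 20, 17 lay above 0 (85%, against 76.1% of all genes), with a median of 1.22 beside 0.59. With limma-voom on summed reads, 11 of 20 lay above 0 and the median was 0.026, beside 0.32 for all genes. On the log2(FPKM + 1) section means, the 2 largest differences were those of hoxd12a and hoxc12a. hoxd12a had section means of 2.37, 2.93 and 5.65 in the low layers and 7.10, 6.27 and 6.66 in the high layers (3.03, adjusted p = 0.065), and hoxc12a differed by 2.95 (adjusted p = 0.0999). With 1 FPKM reached in only 2 low-layer captures, hoxc12a met the filter only with the high-layer captures. hoxa13b had section means of 0, 0.22 and 1.39 and then 1.75, 2.94 and 4.94, a higher value in each section than in the section of the next lower layer number, with a difference of 2.68 that missed the threshold. hoxa13a differed by 2.70 and missed it too, and both entered the test through the high layers alone. The low-layer values of hoxa13b rest on 14 reads in 2 captures, where a single read was worth 0.68 to 2.22 in a low-layer capture. A single CA capture held 276 of the 652 high-layer reads of hoxa13b, and 1 CA capture held 436 of the 721 of hoxa13a. The order of the hoxa13b section means is therefore a description. Of further group 13 genes, hoxc13a, hoxd13a and hoxb13a were too sparse to be tested. hoxc13a had no read among 3960562 in the low layers and 684 reads in the high layers. For counting error alone, that was at least 51.0-fold higher (floor of 3 reads over the group). The reads lay in 5 of 9 captures, and a single CA capture held 388 of them. Without that capture the bound was 27.6-fold. hoxd13a had none against 123 (at least 9.17-fold), in 9 of 9 captures, and at least 5.42-fold without the capture that held most of its reads. By region, these were 6 reads in CA, 32 in CV and 85 in CVP. hoxb13a had none against 1 read, in 1 of 9 captures.

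**Figure D5:**
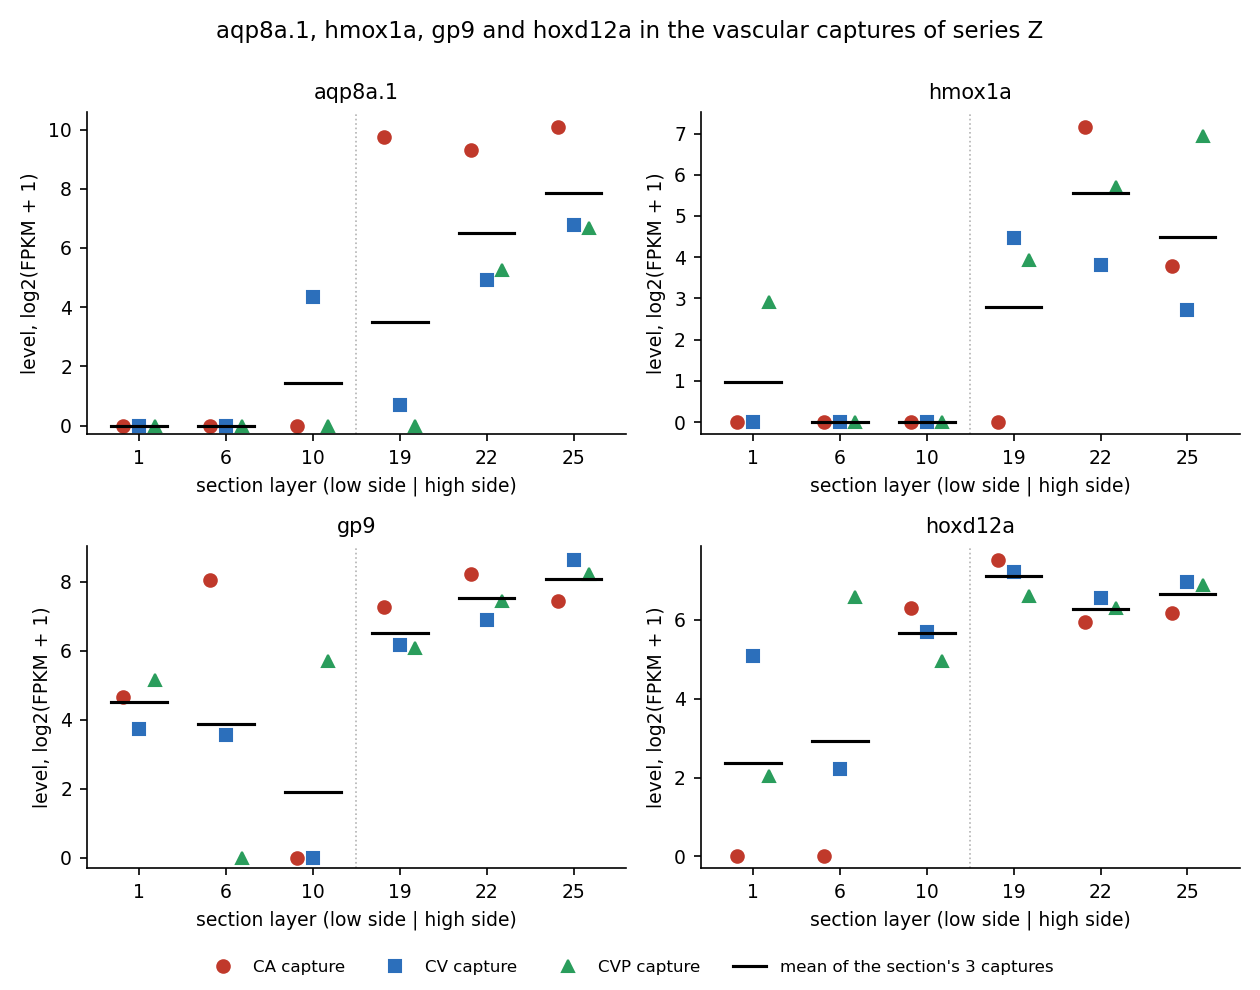
Level of aqp8a.1, hmox1a, gp9 and hoxd12a, log2(FPKM + 1), in each vascular capture by section layer, drawn as for the erythroid genes. aqp8a.1 is at 0 in CA in all low layers and above 9 in all high layers, and hoxd12a lies at 0 only in the CA captures of layers 1 and 6.

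The vessel genes themselves did not pass the test. Of 23 tested endothelial genes 0 were called and the median difference was 0.80, beside 0.59 for all genes. Of the 23, 16 lay above 0 (69.6%, against 76.1% of all genes). Without overlap, 6 were higher and 1 lower, beside 18.9% and 1.65% of all genes. cdh5 differed by 0.05, kdrl by -0.26, mrc1a by -0.43 and the scavenger receptor gene stab2 by -0.37, with adjusted p-values of 0.98, 0.87, 0.74 and 0.83. The largest differences in that list were those of tal1, a transcription factor gene shared by blood and endothelial progenitors (3.52, adjusted p = 0.061), and s1pr1, a sphingosine-1-phosphate receptor gene (3.10, adjusted p = 0.083). The arterial Notch ligand gene dll4 differed by 1.49 (adjusted p = 0.36). tal1, s1pr1 and dll4 reached 1 FPKM in only 4, 4 and 3 low-layer captures. All 3 met the filter only with the high-layer captures, so that their selection favoured a difference. Of 10 arterial, 15 venous scavenger, 18 blood progenitor, 12 niche factor and 23 stromal genes tested, 0 were called in each list, with medians of 0.29, 0.19, 0.78, 0.00 and 0.24. The collagen gene col1a1a differed by -0.42 (adjusted p = 0.62).

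The 1 gene called lower was zgc:158463, which has only a clone-style name in the table and is named here because it was the sole such call. Its section means fell by 0.93 (SE 0.16, adjusted p = 0.016) from a mean of 13.35 in the low layers to 12.42 in the high layers. Other genes whose sides did not overlap, and which lay lower in the high layers without a call, included the fast muscle genes pvalb1 (-2.55, adjusted p = 0.062) and mylz3 (-2.35, adjusted p = 0.065). Without the 3 captures closest to another region these differences were -0.087 and 0.33. In that fit layer 25 was its CA capture alone and layer 22 its CA and CV captures, while the low layers kept all 3 regions. The mix of regions thus differed between the sides, and the fit cannot say whether the lower values rested on the captures left out. Another parvalbumin gene, pvalb4, differed by 3.27 (adjusted p = 0.079). Of 28 tested muscle genes 0 were called and 12 lay above 0 (42.9%, against 76.1% of all genes). With limma-voom on summed reads the list went the other way. There 26 of 28 lay above 0 (92.9%, against 58.5% of all genes) and the median was 1.51, beside 0.32. Without overlap, 4 of the 28 were higher and 5 lower, beside 18.9% and 1.65% of all genes. In the CV captures pvalb1 read 8.66, 8.49 and 4.49 against 3.58, 2.84 and 1.44, in CVP 9.14, 8.39 and 7.02 against 5.30, 4.90 and 0.81, and in CA 10.71, 8.01 and 12.30 against 12.66, 11.78 and 10.98. The low layers were thus higher in both venous regions and not in the artery. The sodium pump subunit genes atp1b1b and atp1a1a.2 lay at 7.54 to 8.23 and 6.91 to 7.76 in the 3 low-layer CV captures, and in the high-layer CV captures only layer 22 was above 0, at 4.85 and 3.64 (vascular mean, adjusted p = 0.11 and 0.14).

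Markers of other tissues were compared as well, and no member of these lists was called. The summed level of 5 muscle markers ranged from 61.4 to 18800 FPKM in the low-layer captures (median 896) and from 8.75 to 38108 in the high-layer captures (median 151). That of 5 epidermal markers had medians of 1715 and 4991 FPKM (ranges 2.28 to 19757 and 11.2 to 18055), that of 3 neutrophil markers 1312 and 869 (198 to 10754 and 0 to 9847), and that of 3 macrophage markers 0 and 15.4 (0 to 11 and 0 to 80.2). Among neural markers stmn2b, and among notochord markers shha and col8a1a, were at 0 in all 9 low-layer captures. The ranges of both sides overlapped for each of these lists, and their part in the results above was not tested. The regions differed in direction. In CA, where the median of all genes was 0.85 and 71.8% lay above 0, all 8 notochord and cartilage genes lay above 0 (median 4.12), as did 27 of 28 muscle genes (median 2.17), while 12 neutrophil genes had a median of -2.31. In CV the medians of these 3 lists were -0.10, -1.09 and -0.22, and in CVP they were 0.17, -1.27 and 1.56. The summed level of the 6 endothelial markers was 157 to 744 FPKM in the low and 142 to 502 FPKM in the high layers.

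At equal depth the globin difference was of the same size. With every vascular capture thinned to 177428 reads, 39 genes were called, 38 higher and 1 lower, 33 of them among the 53 at full depth. hbae3 then differed by 2.97 (adjusted p = 6.5e-06) and alas2 by 2.39 (adjusted p = 0.018). The erythroid list had 10 calls and a median of 2.44, beside 0.51 for all genes. Quantile scaling, which gives every capture the same distribution of values, brought the median difference of all genes down to 0.28 (from 0.59). It called 75 genes higher and 4 lower, 50 of them among the 53, with hbae3 at 2.5 and the erythroid median at 2.47.

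The number of calls depended on how the spread was modelled. With a prior spread that does not vary with level, 2 genes were called and hbae3 had an adjusted p of 0.076. limma-voom on the reads summed over a section, in which deep captures weigh more than shallow ones, called 1 gene higher and 4 lower, and hbae3 differed by 1.74 (adjusted p = 0.068). The erythroid list had 0 and 1 calls in these fits, with medians of 2.48 and 1.80. Leaving out layer 22 or layer 25 left 6 calls each and layer 6 or 19 left 22 each, leaving out layer 10 gave 184, and hbae3 was called in all 6 of these fits, with differences of 2.45 to 3.39. alas2 and aqp8a.1 lost their calls without layer 6, 22 or 25, and hmox1a in every such fit but that without layer 19. Without the 3 captures closest to another region, 43 genes were called and hbae3 differed by 2.87 (adjusted p = 1.2e-08). In that fit layer 25 was its CA capture alone and layer 22 its CA and CV captures, while the low layers kept all 3 regions. The mix of regions thus differed between the sides, so the fit does not compare like captures.

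The neural and muscle captures of the same sections gave 0 calls (0%) for their own mean and 0 (0%) for the difference between the vascular and the surrounding layer difference, with 899 and 920 genes at an unadjusted p under 0.05. Globin reads were at most 0.0135% of a neural and 0.184% of a muscle capture. hbae3 itself had means of 1.58 in the low and 5.19 in the high layers in neural captures and of 5.65 and 7.04 in muscle captures, a surrounding difference of 2.5 (adjusted p = 0.57), so that the vascular difference exceeded it by 0.47 (adjusted p = 0.97) on this log scale. alas2, at under 3.6 in every surrounding section mean, differed by -0.04 there, and the vascular difference exceeded it by 2.52 (adjusted p = 0.62). Over the erythroid list the surrounding median was 0.15, beside 0.27 for all genes, and the median of the vascular excess was 2.19, beside 0.31. The posterior hox list had a median of 0.68 in the surrounding mean, but its 2 parts differed in sign. The median was -0.55 in neural captures (6 of 20 genes above 0) and 0.95 in muscle captures (16 of 20 above 0). Those of all genes were -0.03 and 0.55.

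In series M, whose table was normalised separately, layers 12, 15 and 17 against layers 2, 6 and 8 gave 0 calls (0%) in the vascular mean, with 618 genes at an unadjusted p under 0.05. hbae3 had section means of 9.70, 8.11 and 4.65 in its low layers and 3.05, 6.84 and 7.84 in its high layers, a difference of -1.58 (SE 1.5, adjusted p = 0.92). The sides overlapped and every section lay below the lowest section of series Z. The erythroid list had a median of -0.43 there, beside -0.20 for all genes, and alas2 differed by -0.99 (adjusted p = 0.94). Whether layer numbers mark the same positions in both series is not stated, and the difference between the series was not tested.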

How the data were processed

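The authors deposited 1 table per series with 25067 protein-coding genes as FPKM values. The submitters' processing notes name FastQC, HISAT, HTSeq, DESeq2 and the genome build GRCz10, without versions, roles or order. FPKM divides by gene length and library total, so a gene that takes many reads lowers all others. Libraries were amplified by PCR and no molecular identifiers are named, so copies may count as reads. In each table the values of a gene were whole multiples of 1 step, set by the gene and the library's scale. Whole reads were thus recovered for all 23482 genes above 0 in series Z and 23948 in series M. The read total divided by the library's scale was constant within 0.145% and 0.135%. The largest fitting step was taken, so a gene seen in few libraries may have had more reads than recovered. The recovered reads gave the depth, the thinned tables and the limma-voom fit. Intervals and floors cover counting error only. In all 7859 genes with reads, the left muscle library of layer 6 was exactly the average, rounded up, of its counterparts in layers 1 and 10, so it was left out. No table column was without a sample.

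A gene was tested where 6 or more of the 18 vascular captures had an FPKM of 1 or more (11665 genes). log2(FPKM + 1) values were averaged per section, and 3 sections a side were compared with limma 3.58.1 (R 4.3.3; lmFit, eBayes with a trended prior, two-sided, Benjamini-Hochberg adjusted p under 0.05 over all genes tested), over the vascular mean, each region, the mean of neural and muscle captures, their difference and series M. Muscle is the mean of both sides of a section. Differences between regions were tested within sections, since the captures of a section pair by design. The fit was also run on simulated reads, drawn independently for each capture without a section effect. Changes were placed only in genes well covered in the shallowest capture, so that run cannot speak for weak genes. Figures and recovery used Python 3.11.15, pandas 2.3.3, numpy 2.4.6 and matplotlib 3.10.9.

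The comparison, the gene lists and the tests were chosen with earlier results of these data known. Named genes were taken from the 15 largest called differences in each direction, or the 10 largest without overlap where fewer than 5 were called, up to 5 called in each region, the 10 smallest p-values over regions, up to 4 called members of each list or otherwise its 2 largest differences, and a fixed panel of cell type and hox genes. Further genes of the heme pathway, the red cell membrane and iron handling were named after their values were seen. So were klf1, hoxa13a, hoxb13a and called genes outside these limits (hbbe3, hbbe1.2, hbae1.3, cahz, prdx2, nt5c2l1, fth1a, creg1, nmt1b, mibp2, kazald2). Sequences and coordinates were not used here, as the annotation at hand is of another build.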

Additional observations from a re-analysis of the deposited data

How the results depend on the processing

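The vascular mean called 53 genes. It called 8 with a pseudocount of 0.1, 0 without a filter on low values (22032 genes tested, 2094 at an unadjusted p under 0.05), 5 with limma-voom and 2 without a trend in the prior spread, an alternative added after seeing the data. With the captures entered singly and the section as a random replicate block, 226 were called, with an estimated correlation within a section of -0.015, so that block treats the captures as nearly independent; the section means are the stricter form. Leaving out 1 section gave 6 to 184 calls. For CA the counts were 1 as reported and 0 with the pseudocount of 0.1, with a trend on layer number and with any section left out, 89 with limma-voom and 217 without the prior trend. For CV 1 gene was called with quantile scaling, 6 with the layer trend and 29 with limma-voom. For CVP 1 was called with quantile scaling, 1 with globin genes left out of the scaling (added after seeing the data), 56 with limma-voom and 0 to 1 with a section left out. The test over regions called 4 with the layer trend and 0 to 44 with a section left out, 44 without layer 10. The surrounding mean called 1 with limma-voom and 1 with the layer trend, and series M called 29 with limma-voom. The cause of these differences was not tested.

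Signs turned for genes without a call. cdh5 lay at -0.041 when thinned, -0.36 with limma-voom, -0.0010 with the layer trend, and between -0.17 and 0.25 with 1 section left out. With limma-voom lyz lay at 0.41, mpc1 at -1.18, ikzf1 at -0.60, pvalb1 at 0.56 and mylz3 at 0.63, and mylz3 at 0.33 without the captures closest to another region, where pvalb1 lay at -0.087. That last fit kept only the CA capture of layer 25, so the mix of regions differed between the sides. No called gene named here changed sign under any alternative run. These genes were named because they were called in the same data, so a kept sign was favoured and is a description. Of 33 such genes, 33 were called again with quantile scaling, with the replicate block and with globin genes left out of the scaling, 27 when thinned and 27 with the layer trend, 8 with the pseudocount of 0.1, 2 with limma-voom and 2 without the prior trend. Without a filter on low values, all 33 lost the call. Without layer 1, 6, 10, 19, 22 or 25, 23, 13, 28, 18, 5 and 5 were called again. Shallow low-layer captures limit what can be said of weak genes.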

Other observations

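creg1, which encodes a secreted glycoprotein of lysosomes, rose by 2.5 in the vascular mean (SE 0.45, adjusted p = 0.017) and was higher in each region, by 1.90 in CA, 3.01 in CV and 2.60 in CVP. nmt1b, an N-myristoyltransferase gene, rose by 3.63 (adjusted p = 0.013) and followed the globin pattern by region: it read 9.39, 8.86 and 6.28 in the low-layer CA captures and was listed at 0 in all 3 low-layer CV captures, against 7.03 to 8.27 in CA and 5.69 to 7.92 in CV in the high layers. mibp2 also read high in CA on both sides (9.48 to 10.59 and 9.14 to 9.88) and lower in the low-layer CV captures (5.61 to 7.22) than in the high-layer ones (8.99 to 10.39), with a vascular difference of 1.93 (adjusted p = 0.039). kazald2 showed another order, with 0, 0 and 1.86 in the low-layer CA captures, 5.27 to 7.78 in the high-layer ones, and 6.00 to 7.76 against 6.58 to 7.49 in CVP (vascular difference 3.10, adjusted p = 0.036). trabd2b, a gene of a Wnt-cleaving protease, rose by 4.36 (adjusted p = 0.017), and rfesd and plac8l1 by 4.1 and 4.0 (adjusted p = 0.026 and 0.036). trabd2b, plac8l1 and nmt1b reached 1 FPKM in only 3, 5 and 5 low-layer captures. They thus met the filter only with the high-layer captures, and their selection favoured a difference. rps6kb1a, a ribosomal S6 kinase gene, differed by 3.90 and entered the test through the high layers alone.

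No member of the remaining lists was called in the vascular mean. Medians were highest for macrophage genes (1.66, 9 tested), notochord and cartilage genes (1.47, 8 tested) and glycolysis and hypoxia genes (1.02, 21 tested), beside 0.59 for all genes. Of the 9 macrophage genes, 6 (66.7%, against 36.7% of all genes tested) met the filter only with the high-layer captures. Their selection thus favoured a difference. For the other 2 lists that share was 37.5% and 33.3%. Medians were 0.73 for 20 epidermal, 0.60 for 13 pigment, 0.61 for 9 fin fold, 0.55 for 5 tailbud, 0.42 for 22 cell cycle, 0.42 for 7 inflammatory, 0.33 for 16 stress and 0.63 for 21 signalling genes. Those of 5 neural, 12 neutrophil and 28 muscle genes were 0.16, -0.11 and -0.23, and for each of these lists the medians of single regions differed in sign.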
